A study of Mus musculus with 18 samples.

Results

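EV released by VitD3-treated dendritic cells were compared with the cells that released them, in 3 VitD3-EV and 3 VitD3-DC small RNA libraries of the 18 libraries in the series. Members were chosen by their sample labels and paired by replicate number, and no measured value entered the choice. DC were grown from bone marrow of young adult C57bl/6 mice in medium with GM-CSF from a producing 3T3 line. Both groups received 10 nM VitD3 (1α,25-dihydroxyvitamin D3, which gives tolerogenic DC) for 12 days, and neither received LPS. Cells were then cultured in EV-depleted medium, in which some serum EV remain by the study's methods, and EV were taken from that medium by differential centrifugation and a sucrose density gradient. Control cultures (no treatment) and LPS cultures (24 h of LPS) served only to test whether an EV-to-cell ratio differed between treatments.

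The VitD3-EV libraries held 1898611, 1348654 and 782340 counted reads for replicates 1, 2 and 3, and the VitD3-DC libraries held 15931165, 12427662 and 25489022. EV libraries therefore limited the precision, with 42354 to 128613 miRNA reads, 13044 to 25296 snoRNA reads and 12258 to 43835 snRNA reads each. Replicate 1 was labelled sequencing run 1 and replicate 3 run 2 in both compartments, but in replicate 2 the EV library belonged to run 1 and the cell library to run 2. Replicates came from experiments on different days.

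The RNA classes differ in their place in the cell. Small nucleolar RNAs (snoRNA) stay in the nucleolus, where C/D box members (Snord) guide methylation and H/ACA box members (Snora) guide pseudouridylation of other RNAs. Small nuclear RNAs (snRNA) form the splicing machinery. miRNAs repress messenger RNAs in the cytoplasm, tRNAs decode, and the miscRNA class holds 7SL (the RNA of the signal recognition particle), Y-RNA, Vault RNA and 7SK. EV, which bud from membranes, carry members of all these classes.

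The sequences below are those of RNAs that passed the test within their class and are described in detail, with 2 miRNAs, miR-10a-5p and miR-99b-5p, that share a seed with one of them and did not pass. In the miRNAs, capitals mark the seed (bases 2 to 8), the part that pairs with targets. Mature sequences are from RefSeq on build GRCm38.p6: miR-10b-5p at chr2:74726074-74726096 (+ strand), miR-10a-5p at chr11:96317186-96317208 (+), miR-100-5p at chr9:41531437-41531458 (+), miR-99b-5p at chr17:17830194-17830215 (+), miR-126a-3p at chr2:26591402-26591423 (+), miR-677-5p at chr10:128085291-128085312 (+), miR-3535 at chr1:86352062-86352087 (-) and miR-5121 at chr7:45126925-45126945 (-).
miR-10b-5p: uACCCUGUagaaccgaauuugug
miR-10a-5p: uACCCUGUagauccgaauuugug
miR-100-5p: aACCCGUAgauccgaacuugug
miR-99b-5p: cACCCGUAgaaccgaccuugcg
miR-126a-3p: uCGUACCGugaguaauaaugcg
miR-677-5p: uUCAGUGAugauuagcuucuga
miR-3535: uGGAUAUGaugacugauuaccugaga
miR-5121: aGCUUGUGaugagacaucucc

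The longer RNAs come from GENCODE transcripts on GRCm38. In the C/D box snoRNAs Snord52 (chr17:34950952-34951017, - strand) and Snord99 (chr4:132310691-132310764, + strand), capitals mark TGATGA (the form of the C box searched here) and CTGA (the D box). In the H/ACA box snoRNA Snora73a (chr4:132352775-132352979, - strand) they mark the ACA near its end. In the U1 copy Gm24405 (chr1:178636905-178637071, + strand) they mark ACTTACCTG, with which U1 recognises the 5′ splice site.
Snord52: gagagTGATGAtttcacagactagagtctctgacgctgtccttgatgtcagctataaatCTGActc
Snord99: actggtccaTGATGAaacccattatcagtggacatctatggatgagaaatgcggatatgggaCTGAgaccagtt
Snora73a: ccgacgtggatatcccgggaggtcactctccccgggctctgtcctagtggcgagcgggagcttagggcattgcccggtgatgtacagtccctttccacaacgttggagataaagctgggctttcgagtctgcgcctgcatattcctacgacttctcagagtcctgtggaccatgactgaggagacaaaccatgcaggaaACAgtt
Gm24405: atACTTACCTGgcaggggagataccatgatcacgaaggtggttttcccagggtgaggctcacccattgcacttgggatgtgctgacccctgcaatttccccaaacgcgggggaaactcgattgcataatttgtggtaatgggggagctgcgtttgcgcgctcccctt

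Before single RNAs, the share of each class in all counted reads sets the scale. snoRNA reads made up 1.33, 1.31 and 1.67% of the VitD3-EV libraries and 29.0, 14.5 and 36.99% of the VitD3-DC libraries, a geometric mean 17.5-fold lower in EV. miscRNA reads made up 2.14, 4.08 and 5.41% of EV against 0.162, 0.124 and 0.120% of cells, 27.04-fold higher in EV. In both classes every EV library lay on one side of every cell library, and the exact two-sided permutation test gave p = 0.1, the smallest that 3 against 3 allows.

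The other tested classes overlapped between compartments. miRNA reads were 6.77, 3.14 and 15.4% of EV and 9.77, 17.4 and 16.7% of cells (log2 ratio -1.04 ± 1.26, SD, n = 3 pairs). The exact permutation test, which takes the libraries as unpaired, gave p = 0.2. snRNA reads were 1.64, 0.909 and 5.603% against 1.54, 1.47 and 1.08%, and tRNA reads 63.7, 70.9 and 35.4% against 59.1, 65.7 and 43.8%. The EV library of replicate 3 stood apart from the others, with the most snRNA and miRNA and the least tRNA.

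rRNA had been depleted before library preparation and is given only as part of the total: 24.2, 19.6 and 36.4% of EV reads against 0.333, 0.782 and 1.29% of cell reads. Together with tRNA it took most EV reads, so the denominator matters. Over counted reads without tRNA and rRNA, the log2 ratio was -2.62 for snoRNA, 6.26 for miscRNA, 2.09 for snRNA and 0.47 for miRNA, the last with the opposite sign to that over all reads. Among ribozymes, Rpph1 (the RNA of RNase P) had 333, 244 and 422 RPM (reads per 1000000 counted reads) in EV against 23.5, 7.48 and 6.98 in cells. Rmrp, the related RNA of RNase MRP, had 1828, 382 and 685 against 896, 428 and 561, and its groups overlapped.

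**Figure D1:**
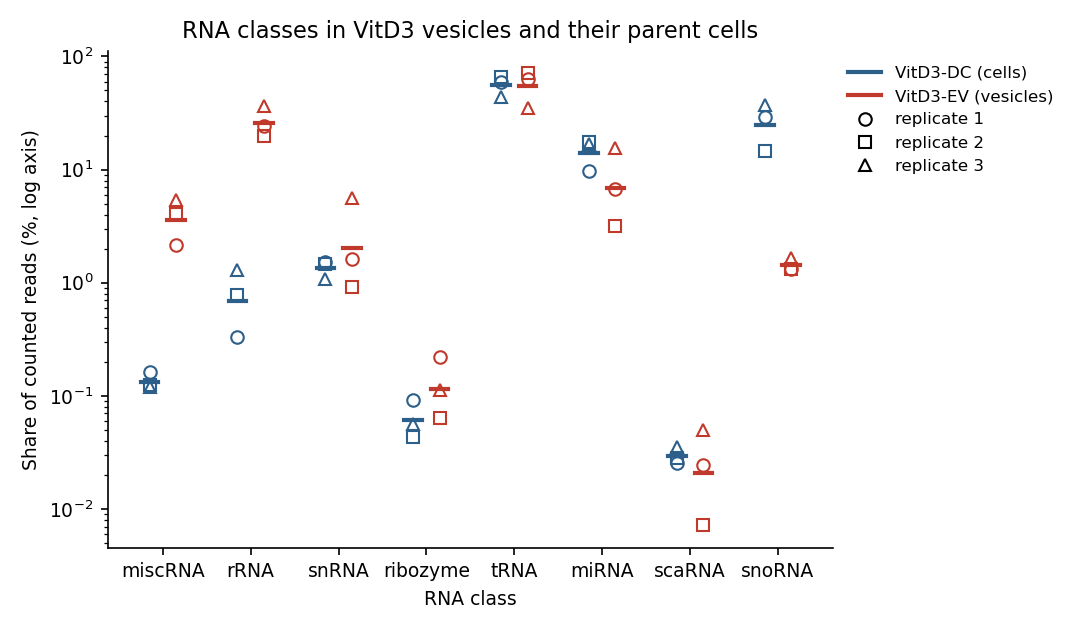
Share of counted reads by RNA class in VitD3-EV (red) and VitD3-DC (blue), in percent on a log axis. Points are replicates (circle 1, square 2, triangle 3) and bars are geometric means. snoRNA is 17.5-fold lower and miscRNA 27.04-fold higher in EV, while the miRNA, snRNA and tRNA points of the 2 compartments overlap.

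Single RNAs were compared on 2 scales. The first scales each library within its class with TMM factors and asks which RNAs of a class are over- or under-represented in EV relative to their own class. The second divides by all counted reads and asks which RNAs take more or less of the library. An RNA is counted as higher or lower where the false discovery rate (FDR, the Benjamini-Hochberg adjusted p of edgeR's quasi-likelihood test) was under 0.05 and the difference over 2-fold, with the replicate pair as a block. Across genes, the log2 ratios of the 3 pairs correlated most in snRNA (Spearman's rho 0.806 to 0.897, 119 RNAs) and snoRNA (0.650 to 0.871, 163 RNAs), less in miRNA (0.324 to 0.579, 177 rows), and least in tRNA, where pairs 2 and 3 had rho 0.139 (222 RNAs). These are descriptions across RNAs, which are not independent replicates. Over all counted reads, 68 of 710 tested RNAs were higher in EV (9.58%) and 188 were lower (26.5%). The lower ones comprised 114 snoRNAs, 36 snRNAs, 27 tRNAs and 11 miRNA rows. The higher ones comprised 28 snRNAs, 19 miscRNAs, 18 miRNA rows and 3 snoRNAs. This split depended on the denominator, with 198 higher and 104 lower over reads without tRNA and rRNA, and 102 higher and 166 lower with TMM factors over the 5 classes.

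Within snoRNA reads, long snoRNAs were over-represented in VitD3-EV and the short ones that dominate in cells were under-represented. Of 163 tested snoRNAs, 40 were higher in EV (24.5%) and 35 were lower (21.5%). All 10 snoRNAs over 150 nt were among the higher ones. Of the 52 over 120 nt, 34 were higher and 0 lower, with a median log2 ratio of 2.75, and of the 105 of up to 100 nt, 5 were higher and 34 lower, with a median of -0.57. By class of guide, 15 of 21 named Snora were higher and 0 lower (median 2.88), and of 62 named Snord 10 were higher and 18 lower (median -0.24). Long snoRNAs that were rare in cells could be tested only through their EV reads, so these counts and medians are partly set by that choice. Sums over all rows, given below, are free of it.

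The zero of this scale is set by the TMM factors, and the contrast between long and short is what it measures. Scaled to the class total instead, the median of all 163 snoRNAs moved from -0.01 to 1.22 and 69 were higher with 0 lower, so that the median of named Snord turned to 1.01, that of snoRNAs up to 100 nt also rose, and that of named Snora became 4.13. Over all counted reads the shift went the other way: 97 of the 105 short snoRNAs were lower and 0 higher (median -3.45), while the 52 long ones had 3 higher, 12 lower and a median of -0.15. As a sum, long snoRNAs took 1395 ± 933 (SD, n = 3) RPM in EV and 2517 ± 224 in cells with overlap, and short ones 12899 ± 1093 against 264880 ± 113976 without overlap. Without replicate 1 the within-class count fell from 75 to 19, with 15 long snoRNAs higher and 4 short ones lower.

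Long snoRNAs that were rare in cells passed the filter (at least 10 expected EV reads) only through their EV reads, and the following sums over all 910 rows of that length do not depend on it. snoRNAs over 120 nt took 8.95, 4.41 and 14.5% of EV snoRNA reads (mean 9.28 ± 5.03, SD, n = 3) and 0.834, 1.92 and 0.638% of cell snoRNA reads (1.13 ± 0.688), with every EV library above every cell library (exact permutation p = 0.1, the smallest possible). Across the 163 snoRNAs, length and within-class log2 ratio had Spearman's rho 0.675, and 0.662, 0.417 and 0.750 in pairs 1, 2 and 3. Within the 62 named Snord alone rho was 0.484. Length was tied to abundance, with a median of 1667 normalised RPM of snoRNA reads (reads per 1000000 reads of the class) in cells for snoRNAs of up to 120 nt and 96.9 for longer ones, and the level in cells had rho -0.779 with the log2 ratio and -0.671 with length. Among snoRNAs of low, middle and high level in cells (54, 54 and 55), the rho of length and ratio was 0.606, 0.412 and 0.173. These groups held 41, 10 and 1 snoRNAs over 120 nt and 9, 43 and 53 of up to 100 nt. With lengths so unevenly divided, these values cannot separate length from level. These are descriptions across RNAs that share libraries, and the parts of length, abundance and scaling in the pattern were not tested apart. Reads were paired, and each read of a pair had been clipped below the length of the long snoRNAs. How much of a long snoRNA a read pair covered together was not tested.

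Snord17, an unusually long C/D box snoRNA (238 nt, chr2:144265979-144266216, in an intron of Snx5), had 205, 46 and 235 reads in EV and 892, 497 and 1934 in cells. These were 0.810, 0.260 and 1.802% of EV snoRNA reads and 0.0193, 0.0276 and 0.0205% of cell snoRNA reads. Every EV library was far above every cell library on this scale, with a within-class log2 ratio of 3.81 ± 0.45 (SE, FDR 1.191e-13), against 0.92 ± 0.64 (FDR 0.2845) over all reads. Snora73a (205 nt), the H/ACA box RNA printed above, had 29, 9 and 109 reads against 127, 45 and 181, at 4.92 ± 0.69 within the class (FDR 6.472e-10) and 2.02 over all reads (FDR 0.0373). Scarna10 (325 nt), which belongs to the Cajal body guides and is listed in the snoRNA class, had 47, 18 and 50 reads against 111, 88 and 163, at 4.92 ± 0.75 and 2.03. These last 2 and Snora17 were the only snoRNAs of 163 higher on both scales. Snora17 had 5, 0 and 18 reads in EV against 6, 4 and 13, so its ratio rests on few reads.

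The 2 most abundant cellular snoRNAs lay on the other side. Gm23246 (67 nt, in the snoRNA host gene Snhg1) made up 24.4, 25.0 and 30.3% of cell snoRNA reads and 10.9, 16.9 and 14.8% of EV snoRNA reads (-2.18 ± 0.51, FDR 0.000144). Snord2 (69 nt) made up 21.4, 22.7 and 25.7% of cell and 13.2, 17.9 and 17.8% of EV snoRNA reads (-1.78 ± 0.49, FDR 0.001106). No EV library reached the cell libraries for either, and over all reads they were at -5.06 and -4.66. Snord52 had 126, 127 and 118 reads in EV against 59116, 24735 and 113075 in cells (within class -2.15 ± 0.34, FDR 3.1e-08, over all reads -5.03), and Snord99 had 63, 65 and 32 against 18372, 12163 and 44485 (-2.08 ± 0.38, FDR 1.166e-06). Scaled to the class total, Snord52 was at -0.90, Snord99 at -0.83, Gm23246 at -0.92 and Snord2 at -0.52, all on the lower side but within 2-fold. Without replicate 1, Snord52 and Snord99 kept their call, while Gm23246 and Snord2 lost it. Snord98 and Gm23130 were lower too, but also passed only with replicate 1 (FDR 0.0843 and 0.065 without it). Snord65 and Snord68, for which the study lists RT-qPCR primers, had within-class log2 ratios of -0.37 (FDR 0.4214) and 0.49 (FDR 0.2447).

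snoRNAs that lie in the same host gene can be set side by side. By the GENCODE annotation, 5 host genes held tested snoRNAs both over 120 nt and of up to 100 nt, a look added after the values had been seen. In the gene of the translation factor Eif4a2, Snora81 (178 nt) was at 4.05 ± 0.61 and Gm26447 (129 nt) at 4.64 ± 1.00, while Snord2 was at -1.78. Snora81 had 19, 13 and 170 reads in EV against 111, 196 and 443 in cells, a higher share of snoRNA reads in each EV library than in any cell library. In Snhg1, Snord22 (126 nt) was at 3.68 ± 0.87 and its 7 tested short neighbours at -2.18 to 0.74. In Snhg12, Snora61 was at 3.82 and Snord99 at -2.08. In Rpl5 the long and the short snoRNA were at -1.22 and -1.29, so there the difference was only 0.07. In all 5 genes every long snoRNA tested had a higher ratio than every short one. The median difference was 4.50 on the log2 scale, which the choice of scaling does not move. A long snoRNA that was rare in cells could be tested only through its EV reads, as Snora81 was. The difference is therefore partly set by the filter and is no test of length. Length, box type and level in cells were not tested apart.

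The sequence features followed the same division. CTGA within the last 20 bases, where the D box lies, was present in 122 of 163 tested snoRNAs (74.8%), in all 35 lower ones and in 15 of the 40 higher ones. TGATGA within the first 30 bases was present in 82 (50.3%), 25 of the lower and 11 of the higher ones. ACA at 2 to 4 bases before the end was present in 43 (26.4%), 2 of the lower and 24 of the higher ones. Only the strand of the RNA was searched, a sequence can hold more than one of these motifs, and a match describes letters only. The higher ones include long snoRNAs that could be tested only through their EV reads.

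**Figure D2:**
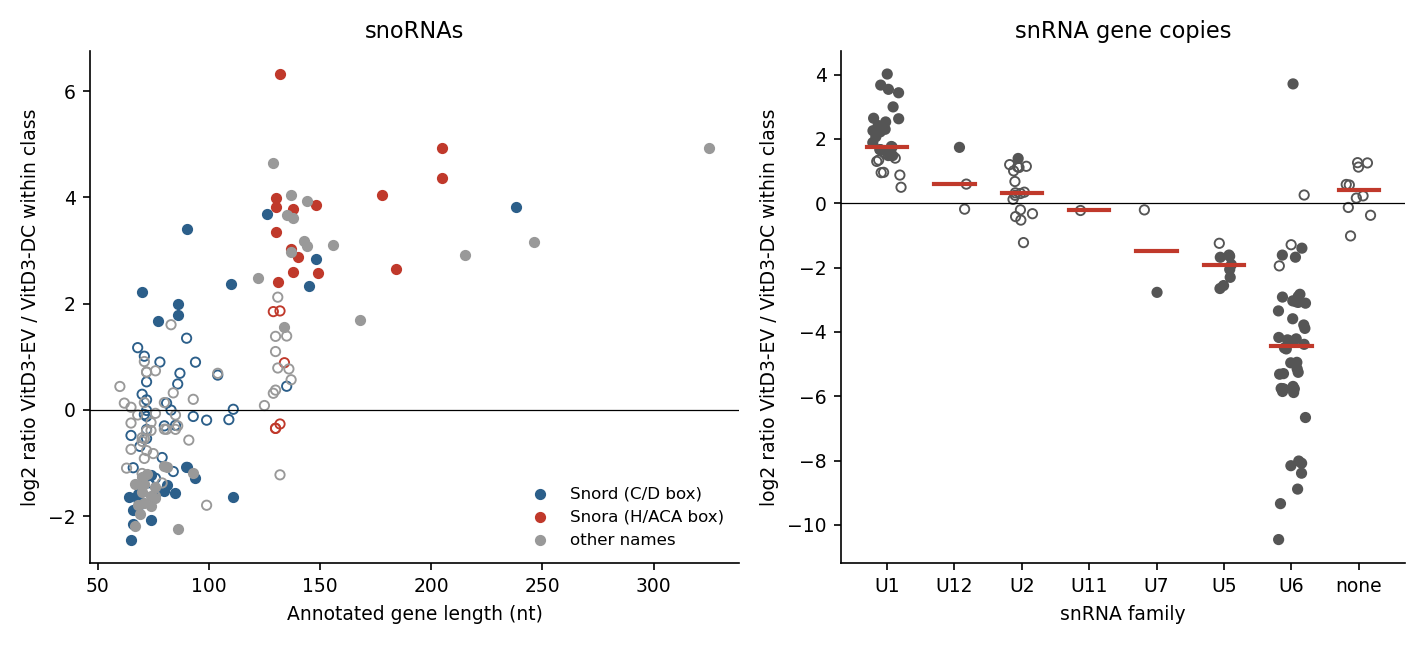
Log2 ratio of VitD3-EV to VitD3-DC within the class. Left, 163 snoRNAs against the annotated gene length in nt, with named Snord in blue, named Snora in red and others in grey. Right, snRNA copies by family with medians as red lines. Filled points passed FDR and 2-fold. snoRNAs over 120 nt have a median of 2.75 and those of up to 100 nt of -0.57, U1 copies have a median of 1.75 and U6 copies of -4.44. Long snoRNAs rare in cells could be tested only through their EV reads.

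Within snRNA reads, U1 was over-represented in VitD3-EV and U6, U5 and U7 were under-represented. U1 and U2 recognise the 5′ splice site and the branch point, U5 and U6 act in the catalytic core, and U7 processes histone messenger RNA. Of 119 tested snRNA gene copies, 25 were higher in EV (21.0%) and 50 were lower (42.0%). Of 31 U1 copies 22 were higher and 0 lower, of 46 U6 copies 1 was higher and 42 lower, of 9 U5 copies 0 were higher and 7 lower, and of 17 U2 copies 1 was higher and 0 lower. U1 copies also made up 24 of the 28 snRNAs higher over all reads, and U6 copies 31 of the 36 lower. Copies of a family are near-identical (median identity to the named gene 98.1% for U6 and 98.8% for U1), so reads can be split between them and copies are not independent, which is why family sums follow.

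U1 sums were 24.3, 18.7 and 14.3% of EV snRNA reads (mean 19.1 ± 5.05, SD, n = 3) and 3.84, 4.18 and 3.44% of cell snRNA reads (3.82 ± 0.374), 4.89-fold higher in EV. U6 sums were 1.91, 1.77 and 0.454% against 10.2, 8.99 and 9.87%, 8.38-fold lower. U5 sums were 9.95, 10.6 and 5.54% against 41.1, 30.8 and 34.9%, 4.23-fold lower. In each of these the EV and cell libraries did not overlap, with the exact permutation p at 0.1, the smallest possible. U2, the most abundant family, went from 38.8, 52.3 and 44.7% in cells to 60.1, 65.2 and 78.0% in EV, 1.498-fold higher without overlap. U7 went from 4.31, 1.43 and 4.92% to 1.20, 1.05 and 0.0867%, also without overlap. Over all counted reads, U1 was at 3978, 1697 and 7985 RPM in EV and 591, 617 and 371 in cells (7.36-fold higher), and U6 at 312, 161 and 254 against 1568, 1324 and 1066 (5.57-fold lower). The division of U1 from U6 thus held on both scales in every pair, and the U1-to-U6 contrast is free of the choice of library size.

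Among U1 copies, Gm24405 (167 nt, printed above) had 112, 51 and 46 reads in EV and 39, 44 and 60 in cells, from snRNA totals that were larger in cells. Its share was 0.361, 0.416 and 0.105% of EV snRNA reads and 0.0159, 0.0240 and 0.0218% of cell snRNA reads (log2 ratio 3.54 ± 0.51, FDR 0.001681, over all reads 4.22). Gm22513 (164 nt, chr12:54696782-54696945) had 253, 126 and 1246 reads against 162, 134 and 250 (4.02 ± 0.71, FDR 0.002642), with the EV library of replicate 3 far above the others. Gm25679, also on chromosome 12, had 109, 64 and 1060 against 95, 111 and 330 and shared that high library. Both kept their call without replicate 3.

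Among U6 copies, Gm22911 (107 nt, chr10:38615375-38615481) had 2, 1 and 2 reads in EV and 732, 363 and 1462 in cells (-5.88 ± 0.65, FDR 0.00104, over all reads -5.05). Gm22360 had 48, 29 and 15 against 2732, 2486 and 2040 (-3.34 ± 0.49). Gm25127 had 1, 0 and 1 against 266, 144 and 475, a pooled ratio of 0.01824 of snRNA shares with a 95% counting interval of 0.002206 to 0.0661. In none of these did an EV library reach a cell library. Of the 46 U6 copies, 7 had no EV read in any library, and the median of the other 39 was -4.21 against -4.44 for all. The abundant U5 copy Gm24871 had 1117, 436 and 389 reads against 38839, 22328 and 33744 (-2.65 ± 0.64, FDR 0.008246). The most abundant U2 copies, Gm23444 and Gm23971, were not called (0.35 ± 0.78 and 0.68 ± 0.80, FDR 0.7288 and 0.4929). Without replicate 1 the U6 count went from 42 to 27 lower and U1 from 22 to 9 higher, with medians of -4.10 and 1.68. U1 copies are longer than U6 copies (most often 164 against 107 nt), and across the 119 copies length and ratio had rho 0.678. U5 copies, most often 116 nt, had a median of -1.91. U2 copies, most often 191 nt, had a median of 0.33, and the 2 tested U7 copies, of 60 and 62 nt, had -1.49. The parts of family and length in the ratio were not tested.

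miscRNA changed as a class more than within it. Over all counted reads, 19 of 29 tested miscRNAs were higher in VitD3-EV and 0 lower, with a median log2 ratio of 3.56, while within miscRNA reads 1 was higher (3.45%) and 0 lower (0%). All 9 tested 7SL-like RNAs, all 5 Y-like RNAs and the Vault RNA Vaultrc5 were higher over all reads, but only 2 of 8 7SK-like RNAs were. The 7SL family summed to 18143, 38469 and 51144 RPM of all counted reads in EV and 1304, 922 and 1081 in cells, 30.2-fold higher. Y-RNA summed to 2502, 1348 and 2366 against 193, 234 and 63.1 (14.1-fold), and Vault to 391, 882 and 225 against 24.3, 21.4 and 11.6 (23.4-fold). None of these 3 families overlapped between compartments (exact permutation p = 0.1 each, the smallest possible).

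7SK, which holds the elongation factor P-TEFb inactive in the nucleus, took a lower share of the class in EV. It made up 1.33, 0.262 and 0.390% of EV miscRNA reads and 5.51, 4.40 and 3.02% of cell miscRNA reads, 8.14-fold lower without overlap. Over all reads it was still 3.32-fold higher in EV, at 285, 107 and 211 RPM against 89.0, 54.5 and 36.1. The share of 7SL within miscRNA reads was 1.12-fold higher on average and overlapped between compartments. Single RNAs of other families also took a lower share without overlap, though neither was called lower with TMM factors. Scaled to the class total, Rny3 was called lower (-1.75), as was 1 of the 9 7SL-like RNAs, whose lowest ratio was -2.81. The 7SL-like Gm24105 went from 13.8, 15.1 and 14.7% in cells to 3.95, 2.04 and 1.11% in EV. Rny3 went from 5.41, 13.9 and 2.37% to 2.26, 1.77 and 1.14%.

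Rn7s1, a 7SL gene (300 nt, chr12:69159295-69159594), had 12560, 20257 and 17965 reads in EV and 7162, 4027 and 9669 in cells. It was at 5.13 ± 0.56 over all reads (FDR 9.322e-11) and 1.39 ± 1.21 within the class (FDR 0.3775). Rny1 had 3349, 819 and 1255 reads against 1505, 632 and 798 (4.48 over all reads, 0.81 within the class), and Rny3 919, 976 and 481 against 1392, 2146 and 724 (2.96 and -0.70), neither called within the class. The single within-class call was Gm25687 (7SL-like, 241 nt), with 275, 146 and 75 reads against 27, 13 and 8 (3.43 ± 0.85, FDR 0.004438). It was lost without replicate 1 (FDR 0.452), without replicate 3 (FDR 0.3391), with the class total (FDR 0.1335) and with a filter of at least 10 reads (FDR 0.0547). TMM factors of the miscRNA class ranged from 0.542 to 0.975 in EV and from 0.631 to 3.04 in cells, and with the class total 1 miscRNA was higher and 5 were lower.

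Within miRNA reads most of the profile was shared by VitD3-EV and VitD3-DC, and a small set of low-abundance miRNAs was higher in EV. miR-21a-5p, an abundant miRNA of myeloid cells, made up 51.9, 62.6 and 46.6% of EV and 41.4, 65.5 and 54.0% of cell miRNA reads (log2 ratio -0.25 ± 0.30, FDR 0.6683). miR-146b-5p was at 8.27, 7.12 and 7.84% against 7.86, 5.42 and 10.5%, and miR-27b-3p at 7.29, 4.19 and 6.003% against 5.30, 6.87 and 7.08%, with the groups overlapping for all 3. Of the 20 most abundant miRNAs of each compartment 17 were shared, 118 of 155 tested names (76.1%) lay within 2-fold, and the levels had rho 0.832 across the 155 names.

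Of 177 tested miRNA rows, 19 were higher in EV (10.7%) and 4 were lower (2.26%), which are 16 and 4 mature names. Without the replicate block 9 rows passed, and 7 of the 16 higher and 2 of the 4 lower names were among them: miR-10b-5p, miR-100-5p, miR-126a-3p, miR-127-3p, miR-203-3p, miR-682 and miR-7676-5p higher, miR-677-5p and miR-3535 lower. A name that was rare in cells could pass that filter only through its EV reads, so the low level of many higher names in cells follows from it. Without replicates 1, 2 and 3 in turn, 11, 15 and 9 rows were higher and 0, 6 and 3 lower.

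miR-10b-5p, a miRNA encoded among the Hox genes, had 21, 8 and 88 reads in EV and 1, 1 and 30 in cells. Its ratio was the highest among names with more than 3 cell reads, at 6.87 ± 0.51 (FDR 0.001481), and 6.60 over all reads. miR-10a-5p, which has the same seed and belongs to another Hox cluster, had 333, 78 and 239 reads against 2530, 4459 and 8908 and a ratio of -0.12 (FDR 0.8446). miR-100-5p, with 8, 1 and 29 reads against 3, 6 and 24, was at 4.61 ± 0.73 (FDR 0.009904), and its seed partner miR-99b-5p was at 0.56 (FDR 0.4437). miR-100-5p lost its call without replicate 1 (FDR 0.0695) or 3 (FDR 0.0798). Of 3 tested names with the seed ACCCGUA 1 was called, and of 9 with the let-7 seed GAGGUAG 0. miR-199a-3p and miR-199b-3p, which share all their reads, were both higher (12, 2 and 32 against 8, 28 and 53, 3.50 ± 0.68, FDR 0.0191).

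miR-126a-3p, the leading endothelial miRNA, had 77, 15 and 143 reads in EV and 17, 34 and 83 in cells. That is 0.0599, 0.0354 and 0.119% of EV miRNA reads, each above the cell libraries at 0.00109, 0.00158 and 0.00195% (5.20 ± 0.44, FDR 0.001586). miR-127-3p, from an imprinted cluster on chromosome 12, had 11, 8 and 16 reads against 0, 0 and 1. Its pooled share was 955.7 times higher in EV, with a 95% counting interval of 160.6 to 38810. miR-143-3p, a smooth muscle and stromal miRNA, had 19, 5 and 146 against 0, 3 and 81 (6.13 ± 0.62, FDR 0.002324). miR-203-3p, an epithelial miRNA that the study also lists for DC, had 75, 9 and 8 against 14, 10 and 25 (4.80 ± 0.67, FDR 0.006294). It passed with all replicates and lost the call without replicate 1 (FDR 0.0695) or 2 (FDR 0.0585). The 3 tested epithelial names, miR-203-3p among them, had a median of 0.25 and a lowest ratio of -0.90. miR-682 had 6, 7 and 23 reads against 4, 4 and 2 (6.17 ± 0.96, FDR 0.009467), and lost its call without replicate 2 (FDR 0.0765). miR-423-5p, the higher name with most reads in the cell libraries of replicates 1 and 2, had 206, 42 and 78 against 1220, 627 and 548 (1.43 ± 0.28, FDR 0.0195) but 0.67 (FDR 0.4822) over all reads.

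**Figure D3:**
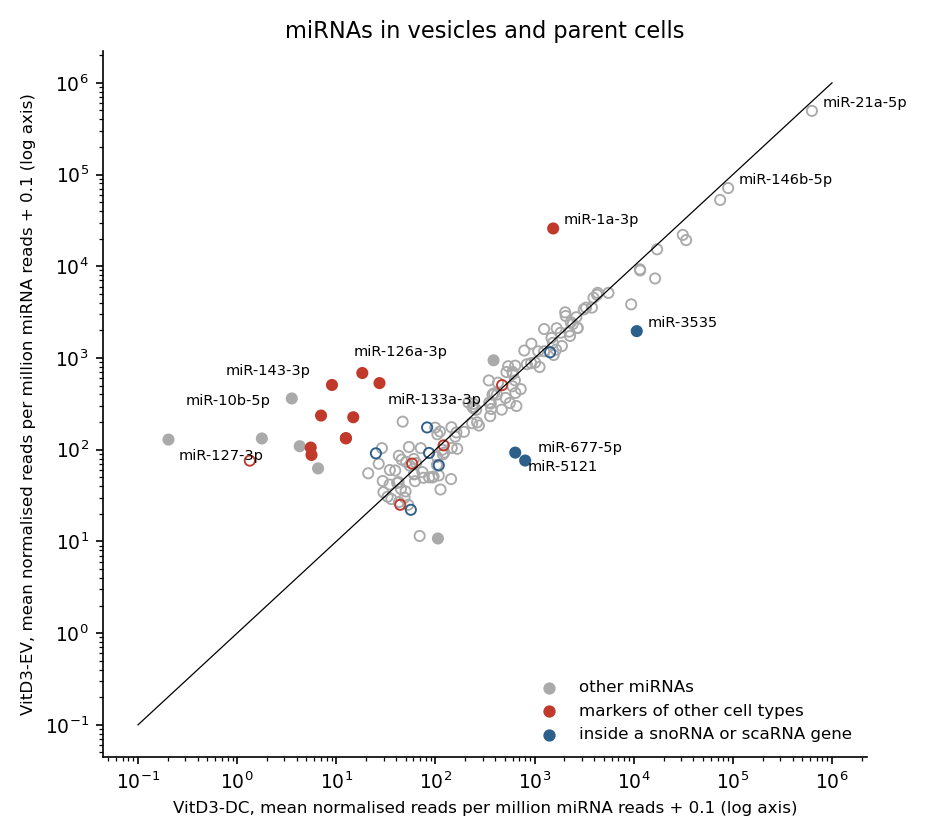
Mean level of each tested miRNA name in VitD3-DC (horizontal) and VitD3-EV (vertical), in normalised RPM of miRNA reads plus 0.1, on log axes. Filled points passed FDR and 2-fold, red marks names on the lists of other cell types, blue marks miRNAs inside a snoRNA or scaRNA gene, and the line marks equality. Abundant miRNAs such as miR-21a-5p lie along the line, and the 16 higher names range from 0.103 to 1540 on the cell axis.

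Some of the higher names are typical of cells other than DC, on lists written for an earlier look at these data. Of 33 such names counted, 15 passed the filter and 18 did not, with at most 11 reads in an EV library. A name near 0 in cells passed only through EV, so calls among those tested are not counted here and the lists are given by the summed reads of their names, whether tested or not. Among the single names, the near-identical erythroid miR-486a-5p and miR-486b-5p were at 3.969 and 4.204 (FDR 0.0191 and 0.0114), and miR-486b-5p lost its call without replicate 3 (FDR 0.0561). The endothelial list summed to 606, 425 and 1260 RPM of miRNA reads in EV and 11.6, 16.2 and 19.8 in cells, and the stromal list to 342, 212 and 1799 against 11.6, 32.4 and 46.6. The erythroid list summed to 148, 165 and 456 against 7.71, 1.85 and 21.2. None of these overlapped between compartments, and they were low in both. The stromal sum counts the shared reads of miR-199a-3p and miR-199b-3p under both names. The erythroid sum may likewise count reads of miR-486a-5p and miR-486b-5p under both. The myeloid list summed to 6212, 7721 and 5056 in EV and 5711, 3301 and 4054 in cells with 0 of 4 called, so miRNAs of the labelled myeloid lineage were present in all 6 libraries, and the lymphoid miRNA listed had 0 reads in each. The myeloid miRNAs mark the lineage and do not define DC. In bulk RNA, more cells or EV of a type cannot be told apart from more RNA per cell or EV.

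The muscle list stood apart by replicate. It summed to 15.6 and 118 RPM in EV of replicates 1 and 2 and to 74222 in replicate 3, against 0.643, 1.85 and 3622 in cells. Nearly all of it was miR-1a-3p, with 1, 4 and 8686 reads in EV and 0, 2 and 14952 in cells. It was similarly high in replicate 3 of control (70815 in EV, 6759 in cells) and LPS cultures (66826 and 7499), so it moved with the replicate under every treatment. miR-1a-3p, miR-133a-3p and miR-206-3p overlapped between compartments in their shares, and miR-206-3p had reads in replicate 3 alone. miR-1a-3p and miR-133a-3p lost their call without replicate 3 (FDR 0.1033 and 0.685) and without the block (FDR 0.6526 and 0.488). Control-EV and LPS-EV held these lists too, with the endothelial list at 75.6 to 1037 and 180.0 to 440.1 RPM against 6.82 to 23.0 and 7.10 to 30.6 in their cells. The part of serum, of other cells and of the lower depth of EV libraries in these rare miRNAs was not tested.

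**Figure D4:**
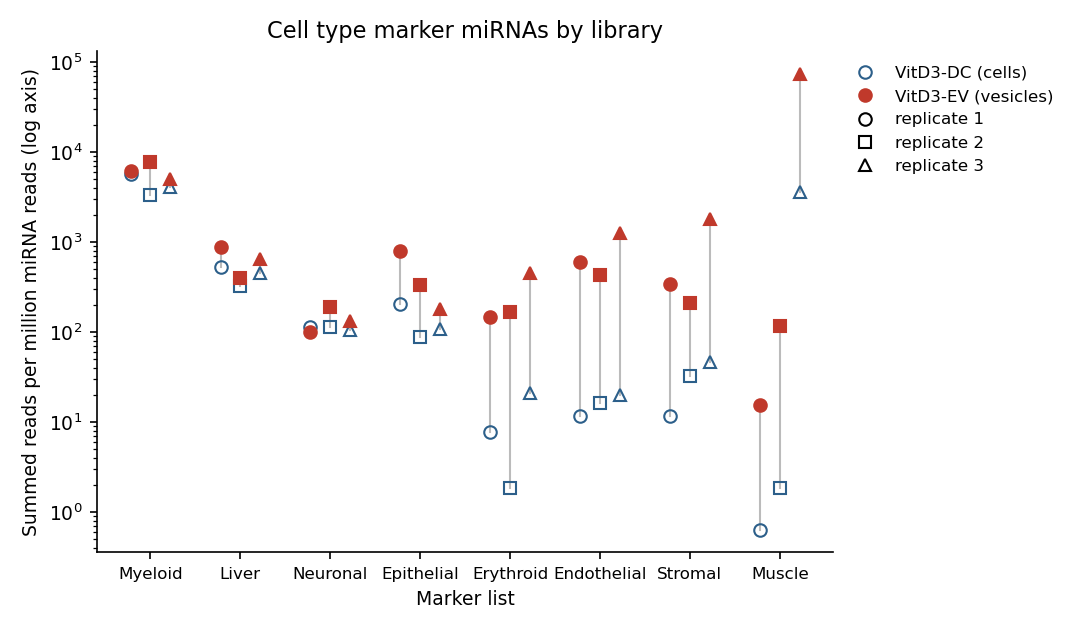
Summed RPM of miRNA reads for each miRNA list by library, on a log axis, with VitD3-EV in red, VitD3-DC in blue and grey lines joining the replicate pairs. The endothelial, stromal and erythroid sums are higher in every EV library, while the epithelial, liver and neuronal sums overlap between compartments. The myeloid sum is of the same order in both, and the muscle sum reaches 74222 in EV and 3622 in cells in replicate 3 alone.

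All 4 lower miRNAs were rarer in every EV library than in any cell library. miR-677-5p had 6, 7 and 4 reads in EV and 1936, 1115 and 2490 in cells (-3.84 ± 0.55, FDR 0.00677). miR-3535 had 285, 134 and 137 against 25650, 11162 and 40884 (-2.52 ± 0.49, FDR 0.0191), and miR-5121 10, 9 and 2 against 1728, 731 and 1970 (-3.24 ± 0.68, FDR 0.0258). The fourth, miR-30b-3p, had 4, 0 and 1 against 175, 165 and 423 (-2.87 ± 0.68, FDR 0.0435). All 4 lost their call without replicate 1, with FDR 0.1019, 0.1918, 0.2897 and 0.1019 in this order, and miR-30b-3p also lost it without replicate 2 (FDR 0.1119) or 3 (FDR 0.0962).

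The first 3 of them lie inside annotated snoRNA genes on the same strand. miR-3535 covers the first 26 bases of Gm24148, miR-5121 positions 3 to 23 of Snord33, and miR-677-5p positions 3 to 24 of Mir677, a gene listed as snoRNA. All 3 contain UGAUGA, the C box letters of a C/D box snoRNA, which 4 of the 133 tested names with a RefSeq sequence hold (3.0%). Reads over miR-3535 equalled 97.4% of those counted for Gm24148 in EV and 99.4% in cells, so the 2 rows count nearly the same molecules in 2 classes. Within snoRNA reads Gm24148 was at -0.36 (FDR 0.3951), Snord33 at -1.16 (FDR 0.1893) and Mir677 at -0.39 (FDR 0.6263). Over all counted reads, miR-3535 was at -3.27 and its host at -3.24, and miR-5121 at -4.05 and its host at -4.04. The reads of miR-3535 and Gm24148 were therefore far below the average miRNA and close to the average snoRNA. Those of miR-5121 and Snord33 were also far below the average miRNA. Snord33 was itself below the median snoRNA ratio of -0.011, though it was not called. Of 9 tested miRNAs inside snoRNA or scaRNA genes, 0 were higher and 3 lower, and of the other 168 rows 19 were higher and 1 lower. In Mir677 the miRNA took 75.0, 19.4 and 14.3% of host reads in EV and 65.4, 76.5 and 45.4% in cells, with overlap.

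Lists of miRNAs known from DC and the immune system gave 0 calls: the let-7 family (9 tested, median -0.32), miR-17-92 and its paralogs (7), the miR-23/27/24 clusters (8) and miRNAs of Toll-like receptor signalling (6, median -0.62). Of all 177 tested rows 10.7% were higher and 2.26% lower, so 0 calls in lists this small is near the share over all rows. miR-155-5p and miR-146a-5p, which rise in DC upon Toll-like receptor signalling, were at -0.63 (FDR 0.4408) and -0.67 (FDR 0.1225). miR-9-5p had 1303, 289 and 900 reads in EV and 55879, 3700 and 61570 in cells (-0.62 ± 0.71), and the cell library of replicate 2 was low, at 0.171% of miRNA reads against 3.59 and 1.45%. Of 10 tested miRNAs among those that the study linked to VitD3 on these samples 3 were higher, which is not independent evidence of their direction. These 3, miR-126a-3p, miR-203-3p and miR-199a-3p, were rare in cells and passed the filter only through their EV reads. Of short motifs reported for miRNA export, GGAG stood in 0, UGCC in 0, CCCU in 1 and GGCU in 1 of the 11 higher names with a RefSeq sequence, close to what their shares of 8.3, 5.3, 7.5 and 15.8% among the 133 tested names give for so few names.

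Among the abundant tRNA isoacceptors, GluCTC overlapped between VitD3-EV and VitD3-DC, while GlyGCC took more and LysCTT less of the tRNA reads in every EV library than in any cell library. GluCTC made up 59.0, 61.5 and 52.4% of EV tRNA reads and 57.5, 59.8 and 59.1% of cell tRNA reads (exact permutation p = 0.8). GlyGCC made up 24.6, 19.1 and 25.9% of EV and 15.3, 15.9 and 11.3% of cell tRNA reads, 1.64-fold higher without overlap (p = 0.1, the smallest the exact permutation test allows). LysCTT made up 6.27, 7.43 and 6.41% against 11.9, 9.84 and 10.6%, 1.61-fold lower without overlap, although the TMM scale gave it -0.12.

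Of 45 isoacceptor sums, 3 were higher in EV (6.67%) and 5 were lower (11.1%), and with the class total 0 were higher and 5 lower. IleAAT had 26, 6 and 3 reads in EV and 1600, 916 and 1145 in cells (-2.75 ± 0.50, FDR 1.5e-05). LeuCAA had 32, 24 and 19 against 2553, 1036 and 2052 (-1.82 ± 0.44, FDR 0.001681), and TyrGTA 131, 85 and 105 against 8422, 4726 and 6972 (-1.60 ± 0.47, FDR 0.0124). Each EV share of these 3 was below every cell share. AsnGTT (-1.22) and ArgTCT (-1.16) were also lower, and SerAGA (1.70 ± 0.50, 774, 294 and 356 reads against 2185, 2729 and 3502), ValAAC (1.44) and GlyGCC (1.28 ± 0.47) were higher. The SerAGA shares overlapped, at 0.0640, 0.0308 and 0.129% of EV against 0.0232, 0.0334 and 0.0314% of cell tRNA reads (exact permutation p = 0.3). Without replicate 1, 0 of the 45 sums passed.

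Of 222 tested tRNA gene copies, 0 were higher in EV (0%) and 25 were lower (11.3%). chr10.tRNA390-AsnGTT had 1, 0 and 1 reads in EV and 416, 265 and 414 in cells, a pooled ratio of tRNA shares of 0.0215 with a 95% counting interval of 0.0026 to 0.07784. chr14.tRNA210-ArgACG had 2, 1 and 1 against 485, 207 and 364, and chr11.tRNA393-IleAAT 6, 1 and 0 against 495, 256 and 346. These copies were rare in both compartments, near-identical copies share reads, and 0 of the 25 passed without replicate 1. Without replicate 2 the split was 8 higher and 15 lower, and with DESeq2 5 higher and 18 lower. The EV libraries of replicates 1 and 2 had tRNA TMM factors of 0.698 and 0.770 and that of replicate 3 had 1.86.

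**Figure D5:**
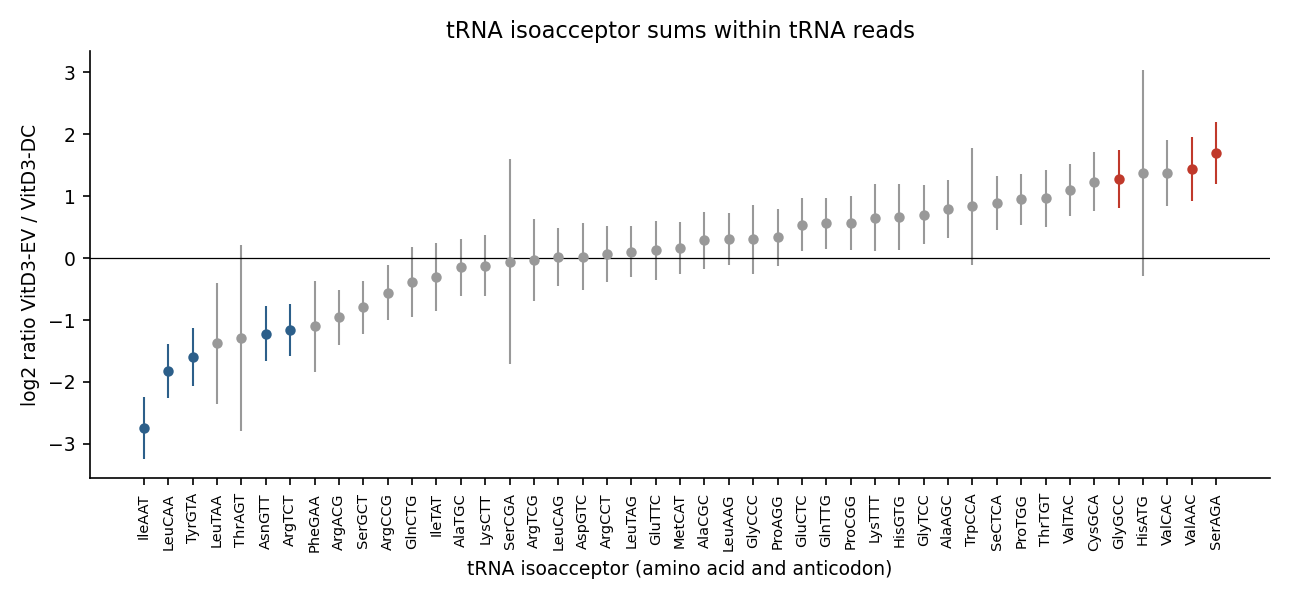
Log2 ratio of VitD3-EV to VitD3-DC within tRNA reads for 45 isoacceptor sums, with standard errors. Red points passed as higher and blue points as lower, and grey points did not pass. IleAAT is lowest at -2.75 and SerAGA is the highest of those that passed, at 1.70.

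Whether EV sorting differed with VitD3 was asked by testing the EV-to-cell ratio of each RNA against that of control and of LPS cultures, over all 18 libraries. Of 710 RNAs, 0 differed from control (0%) and 0 from LPS (0%) by edgeR's quasi-likelihood test. At an unadjusted p under 0.05 there were 25 and 22, with lowest FDR of 0.3767 and 0.2343. edgeR's likelihood ratio test called 1 against control, miR-7676-5p (log2 difference 3.07 ± 0.83, FDR 0.0377), and 0 against LPS. Among the lowest p against control were miR-203-3p (difference 3.92 ± 1.17, FDR 0.3767) and miR-10b-5p (2.45 ± 0.86). Without replicate 2, the 3 rows of miR-9-5p passed against LPS, at -1.66 ± 0.37 (FDR 0.0127). Replicate 2 holds the cell library that stood apart in this miRNA.

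The log2 EV-to-cell ratio of snoRNA was -4.13 ± 0.58 (SD, n = 3) in VitD3, -4.09 ± 0.28 in control and -4.20 ± 1.16 in LPS cultures, and that of miscRNA 4.76 ± 0.92, 4.84 ± 0.48 and 3.47 ± 1.00. Exact permutation tests of VitD3 against the others gave p from 0.2 to 1.0 over the 6 classes, where 0.1 is the smallest possible. Median within-class ratios of snRNA families were also alike: U1 copies were at 1.75 in VitD3, 2.46 in control and 1.55 in LPS cultures, and U6 copies at -4.44, -3.95 and -4.76. Length and snoRNA ratio had rho 0.579 in control and 0.598 in LPS cultures. With 3 cultures a treatment, a p that misses the threshold does not show that sorting is the same.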

How the data were processed

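The libraries profile the small RNA of EV and of their parent cells. The authors' deposited table holds whole-number read counts per RNA gene, not normalised. Per the submitters' notes and the study's methods, reads were trimmed with cutadapt 1.8, clipped, aligned with gsnap to mm10 and counted by strand with HTSeq 0.6.1p1 against miRBase, Ensembl and, for tRNA and rRNA, the UCSC repeat track. Library fragments had been pooled with extra weight on longer ones, rRNA had been depleted, and EV libraries were made from less RNA than cell libraries. Of 6017 rows, 0 named no gene. The 2045 miRNA rows carry 1907 names, 78 of them in several rows, so their shared reads count more than once. Of 1907 names, 1623 had a RefSeq sequence.

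VitD3-EV was tested against VitD3-DC in each class with edgeR 4.0.16 (R 4.3.3, quasi-likelihood, two-sided, TMM within class, replicate as block), in RNAs with at least 10 expected EV reads at their mean share of the class. A second fit used all counted reads as library size. Interactions used all 18 libraries with the culture as block. rRNA, scaRNA and ribozymes entered shares only. Family sums, class shares and isoacceptor shares were compared between EV and cells by exact two-sided permutation, which did not use the pairing. Intervals cover counting error only. A group with no read was set against a floor of 3 counts. snRNA and miscRNA copies were assigned to families by BLAST (at least 80% identity over 50% of the copy), and host genes came from GENCODE M21. Of 3534 Ensembl rows, 3528 had a sequence of the annotated length. The test recovered known changes in simulated data. Those data had the same spread for every RNA and no replicate effect, so the recovery does not bear on single calls here.

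EV and cells were paired by the replicate number in the labels. By the study's methods the replicates were experiments on different days, but the labels do not tie the numbers to days. Residual profiles of same-numbered libraries correlated at r 0.395, -0.019 and 0.456. All 6 libraries were kept, and 0 pairs of libraries were identical. RNAs are named where they were called with the same direction in all 3 pairs and had the lowest p (up to 10 higher and 10 lower miRNAs, up to 5 and 5 of each other class), where they were among the 5 most abundant of a class, where they belong to a described list, or where the study names them. Others were chosen after their values were seen: the further miRNAs that passed, the snoRNAs of shared host genes, Snora17, Gm24148, Mir677 and miR-99b-5p. The snoRNA length limits were also set after the values were seen. The groups, lists and tests were chosen with earlier results of these data known. Alternatives were no block, the likelihood ratio test, DESeq2 1.42.0, DESeq2 size factors, the class total, TMM over all classes, reads without tRNA and rRNA, other filters, 1 row per mature miRNA, all 18 libraries, and leaving out each pair.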

Additional observations from a re-analysis of the deposited data

How the results depend on the processing

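Most counts of calls fell when a pair was left out, and in most classes they were lowest without replicate 1. Leaving out a pair also lowers the power of the test. Leaving out each pair in turn (both libraries), the counts of called RNAs ranged from 11 to 21 for miRNA (23 with all pairs), 19 to 58 for snoRNA (75), 40 to 73 for snRNA (75), 0 to 5 for miscRNA (1), 0 to 23 for tRNA (25), 0 to 11 for isoacceptors (8) and 103 to 245 over all counted reads (256). The lowest counts came without replicate 1, except that miscRNA was lowest without replicate 3. The interaction with control kept 0 calls in each case and that with LPS had 0 to 3. Log2 ratios of class shares ranged from -1.50 to -0.32 for miRNA, -4.46 to -3.95 for snoRNA and 4.39 to 5.27 for miscRNA. They changed sign for snRNA (-0.30 without replicate 3, against 0.59), tRNA (0.11 without replicate 3, against -0.03) and scaRNA (0.22 without replicate 2, against -0.50).

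Without the replicate block, 9 miRNA rows passed, which ended the calls of miR-143-3p, miR-133a-3p, miR-1a-3p, miR-206-3p, miR-199a-3p, miR-199b-3p, miR-486a-5p, miR-486b-5p, miR-423-5p, miR-5121 and miR-30b-3p, and 2 miscRNAs passed. The counts were 82 for snoRNA, 74 for snRNA, 30 for tRNA, 254 over all counted reads, 12 for isoacceptors and 0 for both interactions, within 1.5 times of the blocked ones. With a filter of at least 1 read 40 miRNA rows passed and with at least 10 reads 45 (711 and 371 rows tested, against 177), and the cause was not tested.

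The miscRNA count moved under many settings: 5 with the likelihood ratio test, 9 with DESeq2, 7 with DESeq2 size factors, 6 with the class total, 4 with at least 1 and with at least 10 reads, 5 with filterByExpr and 6 with all 18 libraries. The cause was not tested. The class total left 5 isoacceptors. Over reads without tRNA and rRNA, class ratios moved to 0.47 (miRNA), -2.62 (snoRNA), 6.26 (miscRNA), 1.00 (scaRNA) and 2.43 (ribozyme), since EV libraries lose more reads from the denominator, and let-7f-5p (0.19, against -1.32) and the U5 copy Gm23143 (0.12, against -1.40) changed sign. Gm26224 went from -1.06 to 0.19 with the class total. The likelihood ratio test gave 1 call in the interaction with control. Other alternatives left each count within 1.5 times.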
